A study of Mus musculus with 34 samples.

Results

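The cytochrome P450 genes described here are the protein-coding genes of the deposited expression table whose mouse symbol is Cyp followed by a number, letters and a number. The rule found 94 genes among the 51368 genes of the table, of which 21846 are protein coding. The 94 fall into 16 families (the number in the symbol) and 39 subfamilies (number and letter). The largest subfamilies were Cyp2c with 15 genes, Cyp4f with 9, Cyp2d and Cyp2j with 8 each and Cyp3a with 7. Another 37 Cyp symbols have other forms or gene types and are not members. They are 30 pseudogenes, 1 antisense gene and 6 coding genes with other symbol forms, among them Cyp51, Cyp4a12a and Cyp4a12b.

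Cytochromes P450 are haem enzymes that insert an oxygen atom into small fat-soluble molecules. Those in the endoplasmic reticulum take their electrons from P450 oxidoreductase, encoded by Por, and those in mitochondria take them from ferredoxin. In liver, enzymes of the Cyp1, Cyp2 and Cyp3 families oxidise drugs and other foreign compounds, Cyp4 enzymes hydroxylate fatty acids, and Cyp7a1, Cyp8b1, Cyp27a1 and Cyp7b1 turn cholesterol into bile acids. Many of these genes arose by recent tandem duplication, so that neighbours on a chromosome can be nearly identical in sequence.

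The study prepared RNA-seq libraries from the same RNA in different ways. All material came from 1 wild-type C57BL/6J mouse aged 12 weeks, whose sex is labelled both ways. Liver RNA was used for 33 libraries. PolyA selection, which captures RNA by its tail, gave 9 libraries in batch 1. Ribosomal RNA (rRNA) pull-down, which removes rRNA with hybridised probes, and rRNA digestion, which degrades it enzymatically, gave 9 libraries each in batch 2. Each set of 9 holds every combination of 3 PCR ramp rates (slow, medium and fast) and 3 fragment lengths (short, medium and long), with 200 ng of input RNA and a library kit of its own. Unselected liver libraries, in which rRNA was kept, numbered 3 in batch 1 and 3 in batch 2, from 20 ng of RNA with a slow ramp and medium fragments. There was 1 unselected heart library in batch 1. All polyA libraries are in batch 1 and all rRNA-depleted ones in batch 2, and unselected libraries of the same RNA were made in both. The libraries are repeated preparations of RNA from 1 mouse, so p-values measure only the spread between preparations.

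Total counts were 19.9 to 41.4 M per liver library, except for 1 pull-down library (slow ramp, long fragments), which had 1.13 M. Counts called over all members tested, in TMM fits that hold this low-count library, are given with and without it. So are the pull-down values that it moves most. Counts in shorter gene lists and on other scales include it unless stated otherwise. Levels are normalised CPM, counts relative to library totals that were scaled by TMM over the 33 liver libraries. Transcripts of the Y-linked genes Ddx3y, Uty, Kdm5d and Eif2s3y were present in every liver group, with means of 19.1 to 44.4 normalised CPM in unselected batch 1, while Xist was at 0.211. Of 4 P450s known to be higher in male liver, Cyp2d9 had a mean of 412 in the same libraries, Cyp4a12a 275, Cyp4a12b 149 and Cyp7b1 114. Of 9 known to be higher in female liver, Cyp2a4 had a mean of 49.6, Cyp2c40 9.56 and Cyp2c69 2.64. The other 6 had means of 0.782 for Cyp2b9, 0.558 for Cyp3a44, 0.483 for Cyp3a41a, 0.212 for Cyp3a16, 0.148 for Cyp3a41b and 0 for Cyp2b13. The 5 hepatocyte markers Alb, Apoa1, Ttr, Serpina1a and Fgb were present in all 33 libraries.

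A few genes made up most of the liver P450 RNA. Per kilobase of transcript, Cyp3a11 and Cyp2e1 stood first in the 6 unselected liver libraries, followed by Cyp2c29 and Cyp2f2. Cyp3a11, a main drug-metabolising enzyme of mouse liver, had 1607 ± 67.4 normalised CPM per kilobase (SD, n = 6 for this and the levels that follow). Cyp2e1, which oxidises ethanol and other small molecules, had 1572 ± 15.1, and its 6 libraries overlapped those of Cyp3a11. Cyp2c29, an arachidonic acid epoxygenase, had 587 ± 10.2, Cyp2f2, known for activating naphthalene, 346 ± 12.8, and Cyp3a25 281 ± 13.1. These 3 overlapped neither each other nor the next gene. From there the order was not resolved: Cyp2d9, a male-predominant testosterone hydroxylase, had 234 ± 7.65, Cyp2a5, the coumarin hydroxylase, 230 ± 4.92, Cyp2d26 220 ± 12.8, Cyp2d10 195 ± 7.98 and Cyp4a14, a fatty acid hydroxylase, 181 ± 5.80, and each overlapped the next in the list. Cyp4a14 did not overlap the gene after it, Cyp2j5, at 151 ± 6.35.

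**Figure D1:**
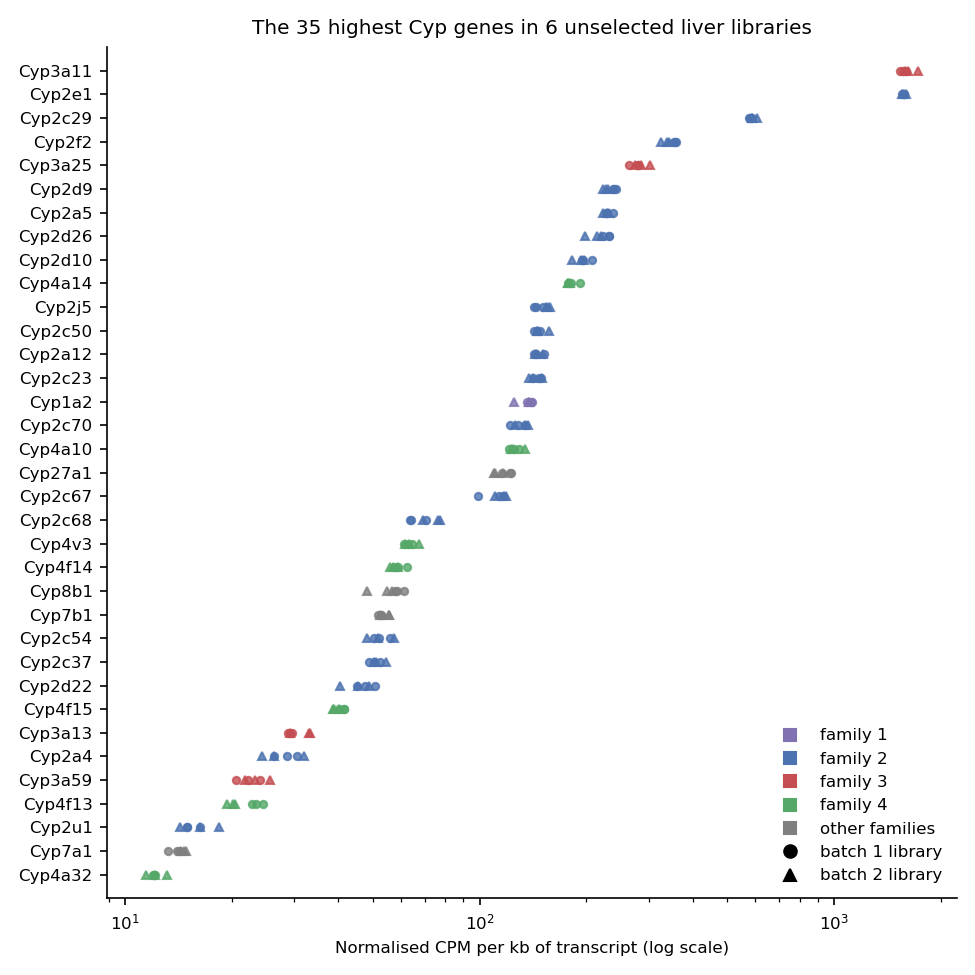
Levels of the most abundant P450 genes in liver, as normalised CPM per kilobase of transcript on a log axis, with 1 point per library. Colours mark the family and shapes the batch. Cyp3a11 and Cyp2e1 overlap at the top, with means of 1607 and 1572 in the 6 unselected libraries, and the genes from Cyp2d9 to Cyp4a14 form a run of overlapping levels that ends above Cyp2j5.

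By subfamily, Cyp3a held 29.9% ± 0.921 of all normalised P450 counts in the unselected liver libraries, Cyp2e 19.3% ± 0.0997, Cyp2c 15.9% ± 0.210, Cyp2d 8.29% ± 0.433, Cyp2a 5.09% ± 0.0821 and Cyp4a 5.0% ± 0.127 (SD, n = 6). Corrected for transcript length, Cyp3a held 26.3% and Cyp2e 21.3%. The 15 Cyp2c genes together therefore held less than the single gene Cyp2e1. In the selected libraries Cyp3a had means of 29.0% with polyA selection, 31.7% with pull-down and 31.4% with digestion, and Cyp2e 19.8%, 18.2% and 16.9%. As a share of all counts, the 94 genes took 0.335% ± 0.00574 in unselected batch 1 and 0.357% ± 0.00988 in batch 2 (SD, n = 3 each). They took 2.82% ± 0.119 with polyA selection, 1.91% ± 0.263 with pull-down and 2.42% ± 0.0454 with digestion (SD, n = 9 each). The low-count pull-down library was the lowest of its group at 1.26%, and the other 8 had 1.99% ± 0.108.

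Among the bile acid genes, in the 3 unselected batch 1 libraries, Cyp27a1, the mitochondrial sterol hydroxylase, had 232, 231 and 219 normalised CPM, Cyp8b1, the sterol hydroxylase that sets the cholic acid share, 119, 112 and 114, and Cyp7a1, the rate-limiting enzyme, 58.5, 59.2 and 55.1. Cyp2c70, which makes the muricholic acids of mice, had 220, 231 and 209. Cyp39a1 stayed between 5.97 and 8.45, and Cyp46a1, the brain cholesterol hydroxylase, between 0.890 and 1.25. Of the retinoic acid hydroxylases, Cyp26a1 had 2.06 to 2.30 and Cyp26b1 2.89 to 3.55. Cyp2r1, a vitamin D hydroxylase, had 8.45, 11.3 and 7.51. The steroid hormone enzymes Cyp11a1, Cyp11b1, Cyp11b2 and Cyp19a1 had no count in any unselected liver library, Cyp21a1 had 0 to 2 counts and Cyp17a1 15 to 24. Over all 33 liver libraries, 8 members had 0 counts in each: Cyp19a1, Cyp2b19, Cyp2b23, Cyp2j12, Cyp2j7, Cyp2w1, Cyp4a29 and Cyp4f40. Of the 94, 62 averaged at least 10 counts over the liver libraries and 35 at least 1000. In the unselected libraries 52 (batch 1) and 51 (batch 2) averaged at least 10 counts, against 64, 62 and 64 with polyA selection, pull-down and digestion.

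Near-identical members limit what counts per gene can say. Translated coding sequences gave 20 pairs of members with at least 90% identical proteins, and in 16 pairs both members averaged at least 10 counts over the selected libraries. The closest of the 16, Cyp2a4 and Cyp2a5, differ at 23 of 1482 coding bases and share an identical run of 216 bases. The 3 Cyp4a neighbours Cyp4a10, Cyp4a31 and Cyp4a32 differ among themselves at 77 of 1527 coding bases. Windows of 75 coding bases are shown for these 2 sets because a read can be assigned to one member only through the letters that differ. They are from the GENCODE M21 transcripts of GRCm38, written 5′ to 3′ on the strand of the gene, and capitals mark the positions at which the members of the set differ. The Cyp2a windows lie at chr7:26308985-26309059 (Cyp2a4) and chr7:26837148-26837222 (Cyp2a5), both on the plus strand.
Cyp2a4: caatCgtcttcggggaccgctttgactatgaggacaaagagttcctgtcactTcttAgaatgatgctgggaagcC
Cyp2a5: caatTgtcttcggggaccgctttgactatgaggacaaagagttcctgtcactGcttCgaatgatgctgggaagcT
The Cyp4a windows lie at chr4:115519630-115519704 (Cyp4a10), chr4:115565010-115565084 (Cyp4a31) and chr4:115602260-115602334 (Cyp4a32), all on the plus strand.
Cyp4a10: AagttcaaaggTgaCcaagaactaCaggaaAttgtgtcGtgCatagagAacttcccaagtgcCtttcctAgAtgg
Cyp4a31: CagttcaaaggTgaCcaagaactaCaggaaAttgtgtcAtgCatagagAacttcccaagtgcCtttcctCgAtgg
Cyp4a32: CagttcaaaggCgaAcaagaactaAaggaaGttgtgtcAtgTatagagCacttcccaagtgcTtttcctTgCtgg
The Cyp2a window holds 4 differing positions and the Cyp4a window 11.

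The division of counts within a pair was compared between matched libraries. Cyp2a4, a testosterone hydroxylase, took 9.62% ± 0.824 of the counts of Cyp2a4 plus Cyp2a5 in unselected batch 1 and 9.44% ± 1.38 in batch 2 (SD, n = 3 each). It took 9.44% ± 0.282 with polyA selection, 9.56% ± 0.735 with pull-down and 9.73% ± 0.282 with digestion (SD, n = 9 each). None of its contrasts passed the test (exact sign-flip test over 9 matched pairs, two-sided, adjusted p = 0.213 to 0.833), the widest mean difference between methods being polyA minus digestion at -0.284 percentage points (SD 0.512). Without the low-count library, digestion minus pull-down was 0.457 points in 8 pairs (SD 0.434, exact sign-flip test, adjusted p = 0.05), which is not under the threshold. Cyp4a31 differed from this. It took 32.4% ± 2.94 of the counts of Cyp4a31 plus Cyp4a32 in unselected batch 1, 34.2% ± 2.74 in batch 2 (SD, n = 3 each), 31.8% ± 1.57 with polyA selection and 34.4% ± 1.85 with digestion (SD, n = 9 each). With pull-down it took 16.3% ± 2.90 (SD, n = 9; lowest 13.5%, median 15.0%, highest 22.2%), and the pull-down libraries overlapped no other group. The highest share came from the low-count library, with 2 counts of Cyp4a31 and 7 of Cyp4a32, and the other 8 had 15.5% ± 1.99, up to 18.6%. Digestion exceeded pull-down by 18.1 percentage points (SD 4.45) and polyA selection exceeded it by 15.5 (SD 2.04), each in 9 of 9 matched pairs (exact sign-flip test, p = 0.00391, the smallest that 9 pairs can give, adjusted p = 0.00938). PolyA minus digestion was -2.59 points (SD 3.22, exact p = 0.0586, adjusted p = 0.113).

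**Figure D2:**
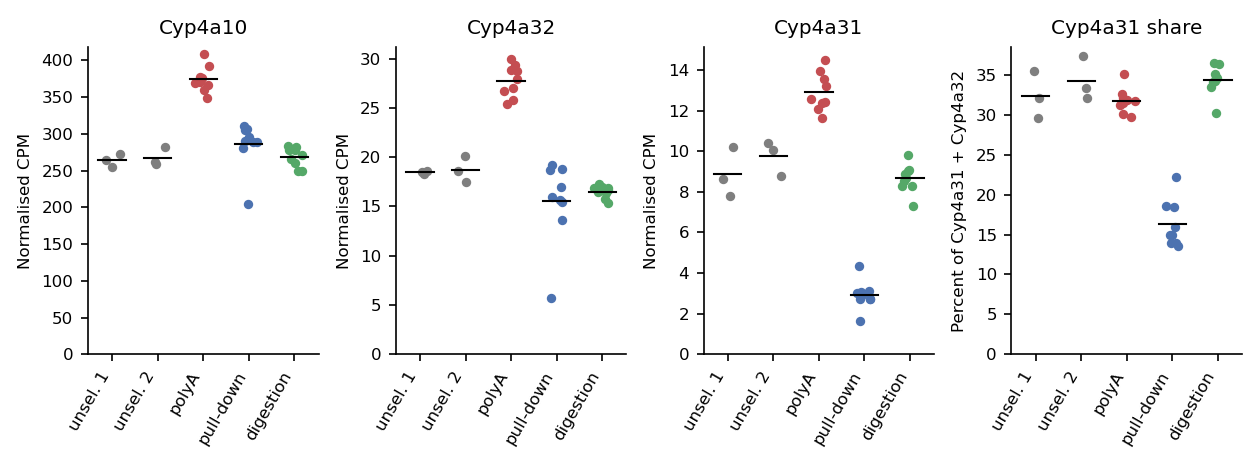
Normalised CPM of Cyp4a10, Cyp4a32 and Cyp4a31 in the liver libraries, and the percent of the counts of Cyp4a31 plus Cyp4a32 that went to Cyp4a31, with 1 point per library, 1 column per preparation and a line at each mean. The 9 pull-down libraries have Cyp4a31 shares of 13.5% to 22.2%, below every other library.

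Cyp4a31 counts themselves were low in pull-down. It had 8.65, 7.79 and 10.2 normalised CPM in unselected batch 1 and 8.78, 10.4 and 10.1 in batch 2. Its lowest, median and highest values were 11.7, 12.6 and 14.5 with polyA selection, 7.33, 8.69 and 9.83 with digestion, and 1.63, 2.92 and 4.35 with pull-down. No pull-down library reached any other library. Against Cyp4a10, the most abundant of the 3, the share of Cyp4a31 was 1.00% ± 0.177 with pull-down, 3.33% ± 0.154 with polyA selection and 3.12% ± 0.229 with digestion (SD, n = 9 each). Smaller shifts were found in other pairs, and in all 24 of the 48 tests of a pair and a method contrast passed an adjusted p of 0.05 (27 without the low-count library). Cyp2c68 took 42.5% ± 1.60 of the counts of Cyp2c68 plus Cyp2c67 with pull-down and 38.7% ± 0.588 with digestion, a difference of -3.78 points (SD 1.95, 1 of 9 pairs higher, exact p = 0.00781, adjusted p = 0.0170). In the other 8 libraries the pull-down share was 43.0% ± 0.561 (SD, n = 8) and the difference -4.34 points (SD 1.01, 0 of 8 pairs higher, exact sign-flip test, adjusted p = 0.0144). Cyp2c54 took 2.36 points more of Cyp2c54 plus Cyp2c37 with digestion than with pull-down (SD 2.09, 9 of 9 pairs, exact sign-flip test, adjusted p = 0.00938), and 1.72 points more without the low-count library (SD 0.861, 8 of 8 pairs, adjusted p = 0.0144). Cyp3a59 took 0.730 points more of Cyp3a59 plus Cyp3a25 with polyA selection than with digestion (SD 0.232, 9 of 9 pairs, exact sign-flip test, adjusted p = 0.00938). By fragment length, 0 of the 16 pairs passed (long minus short, exact sign-flip test, 3 with unadjusted p under 0.05). The lowest of these was Cyp2d11 with Cyp2d10 (-0.0563 points, exact p = 0.00781, adjusted p = 0.125). A single pair at the smallest exact p of 9 matched pairs would have an adjusted p of 0.0625 over the 16, so no pair could pass by itself, and this count cannot be set against that by method. The pairs share members and subfamilies, so their tests are not independent.

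The comparison of each method with the unselected libraries of its batch asks which P450 levels differ between selected and unselected libraries. Selected libraries had 200 ng of input RNA and unselected ones 20 ng, and each method had its own library kit. Selection, input and kit cannot be told apart here, nor selection and kit between methods. Words such as rose and fell give the direction only. Of the 94 members, 67 passed the filter on low counts. PolyA selection gave 42 of the 67 as different from unselected batch 1, 37 higher and 5 lower, where 50.4% of all genes tested were called, 25.6% higher and 24.8% lower (edgeR quasi-likelihood test, adjusted p under 0.05). The low-count library takes part in the shared fit, and without it polyA selection gave 45, 40 higher and 5 lower, beside 52% (26.6% and 25.4%). Pull-down gave 21 of 67, 16 higher and 5 lower, beside 32.8% of all genes (17.5% higher and 15.3% lower). Leaving out the low-count library, pull-down gave 33 of 67, 28 higher and 5 lower, beside 35% (19% and 16%). Digestion gave 4 of 67, all higher, beside 14.7% of all genes (7.08% higher and 7.64% lower). Without the low-count library, digestion gave 10 of 67, 6 higher and 4 lower, beside 17.7% (8.84% and 8.83%). The median log2 fold change of the members tested was 0.36 with polyA selection, 0.15 with pull-down and -0.00109 with digestion, beside 0.04, 0.06 and 0.04 for all genes tested. All these values are under TMM scaling. With the size factors of DESeq2 in its place, the splits of higher and lower members were 32 and 5 with polyA selection, beside 22.5% and 27.2% of all genes, 10 and 7 with pull-down, beside 13.3% and 18.1%, and 2 and 2 with digestion, beside 4.56% and 9.35%. Under library totals the median of all genes moved to 2.67, 2.31 and 2.85, and 65, 66 and 66 of the 67 members were higher and 0 lower, beside 92.5%, 94.9% and 97.9% of all genes higher. That scale moves nearly all genes up together, so its directions neither support nor oppose a call against the unselected libraries, and values on it are given relative to the median of all genes. The summed level of the 94 genes was 14843 ± 146 normalised CPM in unselected batch 1, 14992 ± 223 in batch 2 (SD, n = 3 each), 20027 ± 1372 with polyA selection, 16845 ± 2001 with pull-down and 14542 ± 290 with digestion (SD, n = 9 each). The low-count pull-down library had the lowest sum, 11630, and the other 8 had 17497 ± 452.

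Genes of the drug and xenobiotic families are taken here as all members of Cyp1, Cyp2 and Cyp3 except Cyp2r1, Cyp2c70 and Cyp2u1. Of the 39 tested, 26 rose and 1, Cyp2j9, fell with polyA selection under TMM scaling, beside 25.6% and 24.8% of all genes. With those 3 genes included, 26 of 42 rose and 3 fell, the other two being Cyp2r1 and Cyp2u1. Cyp2a5 had 458, 480 and 462 normalised CPM in unselected batch 1, and 688, 792 and 851 as the lowest, median and highest of 9 polyA libraries. The groups did not overlap, and the log2 fold change was 0.78 (SE 0.0403, adjusted p = 4.42e-16). Cyp2a4 rose from 49.9, 45.8 and 53.2 to 72.5, 80.7 and 87.5 (log2 fold change 0.75, SE 0.0767, adjusted p = 1.67e-09), and the groups did not overlap. The share of Cyp2a4 in its pair, given above, passed no test. Cyp2d40, of the Cyp2d drug-oxidising subfamily, rose from 10.1, 11.6 and 11.5 to 16.8, 19.5 and 21.9 (0.79, SE 0.0897, adjusted p = 1.22e-08). Cyp2a12 (0.65) and Cyp2c37 (0.62), the next by size, also had groups that did not overlap. The most abundant genes rose less: Cyp2e1 by a log2 fold change of 0.46 (SE 0.0992) and Cyp3a11 by 0.44 (SE 0.162, adjusted p = 0.0248).

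The 5 members lower with polyA selection under TMM scaling were Cyp2u1, Cyp26b1, Cyp2r1, Cyp4b1 and Cyp2j9. Under library totals they were above 0, as were nearly all genes, and lay below the median of all genes by between 0.38 (Cyp2j9) and 1.44 (Cyp2u1) on the log2 scale. Cyp2u1, which hydroxylates long-chain fatty acids, had 71.3, 65.6 and 65.5 in unselected batch 1 and 22.9, 24.8 and 26.2 as the lowest, median and highest with polyA selection. All 9 polyA libraries were below all 3 unselected ones (log2 fold change -1.42, SE 0.0601, adjusted p = 2.51e-18). Its transcript, 4378 bases, is among the longer ones of the family, whose tested members have a median of 1916. The 5 lower members had a median of 2037 bases (1627 to 4495) and the 37 higher ones 1892 (1163 to 3808). Cyp26b1 fell from 3.5, 2.89 and 3.55 to 1.04, 1.35 and 1.65 (-1.37, SE 0.230, adjusted p = 9.73e-06) and Cyp2r1 from 8.45, 11.3 and 7.51 to 3.54, 4.79 and 6.56 (-0.87, SE 0.207, adjusted p = 0.000767). Cyp4b1, which activates furans and hydroxylates fatty acids, fell from 14, 9.79 and 10.0 to 7.11, 7.57 and 8.43 (-0.64, SE 0.121). None of these groups overlapped. Cyp2j9 fell by 0.36 on the log2 scale (SE 0.103, adjusted p = 0.00406), and without replicate 3 of unselected batch 1 by 0.29 (adjusted p = 0.0616).

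Under TMM scaling, Cyp4b1 was higher with pull-down, while with polyA selection it was lower. Cyp4b1 had 13.2, 9.38 and 9.42 in unselected batch 2, and 13.1, 16.9 and 20.4 as the lowest, median and highest with pull-down (log2 fold change 0.65, SE 0.117, adjusted p = 5.05e-05). The lowest pull-down library lay below the highest unselected one. Cyp2d40 was higher by 0.59 (SE 0.0901), Cyp2a12 by 0.46, Cyp27a1 by 0.44 and Cyp2d10 by 0.44. Of the 5 members lower under TMM scaling, Cyp4a31 was farthest from the unselected libraries (-1.70, SE 0.159, adjusted p = 4.84e-10; -1.70 also without the low-count library). Under library totals it was at 0.56, where the median of all genes was 2.31, or -1.75 relative to that median, and the other 4 were at -0.38 to -1.39 relative to it. Cyp2f2 had 641, 607 and 630 in unselected batch 2 and 402, 478 and 537 with pull-down, with no overlap (-0.40, SE 0.0678). Cyp39a1, an oxysterol hydroxylase, was lower by 0.60 on the log2 scale (SE 0.189, adjusted p = 0.0139), and Cyp2u1 was at -0.33 (SE 0.0601). The fifth, Cyp1b1, had means under 1.2 normalised CPM in both groups (-1.33, SE 0.364, adjusted p = 0.0104) and was named after its values were seen. Cyp3a11, Cyp2c29 and Cyp2e1 passed the test only without the low-count library, with log2 fold changes of 0.38, 0.38 and 0.18.

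Digestion gave 4 of the 67 members as higher under TMM scaling, and 1 or 2 without replicate 2 or 3 of unselected batch 2. The 4 were Cyp8b1 (0.29, SE 0.0599, adjusted p = 0.00102), Cyp2u1 (0.25, SE 0.0596), Cyp4f15, a fatty acid hydroxylase (0.16, SE 0.0468), and Cyp2d10 (0.14, SE 0.0423, adjusted p = 0.0240). Cyp8b1 had 111, 94.0 and 107 in unselected batch 2 and 124, 128 and 131 as the lowest, median and highest with digestion, without overlap. Cyp2u1 had 80.7, 62.7 and 71.0 against 78.7, 82.9 and 89.2, and the groups overlapped. Without unselected replicate 2, Cyp2u1 was at 0.16 (adjusted p = 0.0980). Cyp2d10 and Cyp4f15 lost the call with DESeq2 (adjusted p = 0.0699 and 0.132). Without the low-count library, 4 members were called lower with digestion (edgeR): Cyp2e1 (-0.22, adjusted p = 0.000184), Cyp2j5 (-0.26, adjusted p = 0.00215), Cyp2c70 (-0.24, adjusted p = 0.00085) and Cyp2c68 (-0.21, adjusted p = 0.0426). Cyp2c23 (0.13) and Cyp2d22 (0.16) were then also called higher. Cyp2e1 had 2850 to 2927 in unselected batch 2 and 2398 to 2488 with digestion, without overlap.

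**Figure D3:**
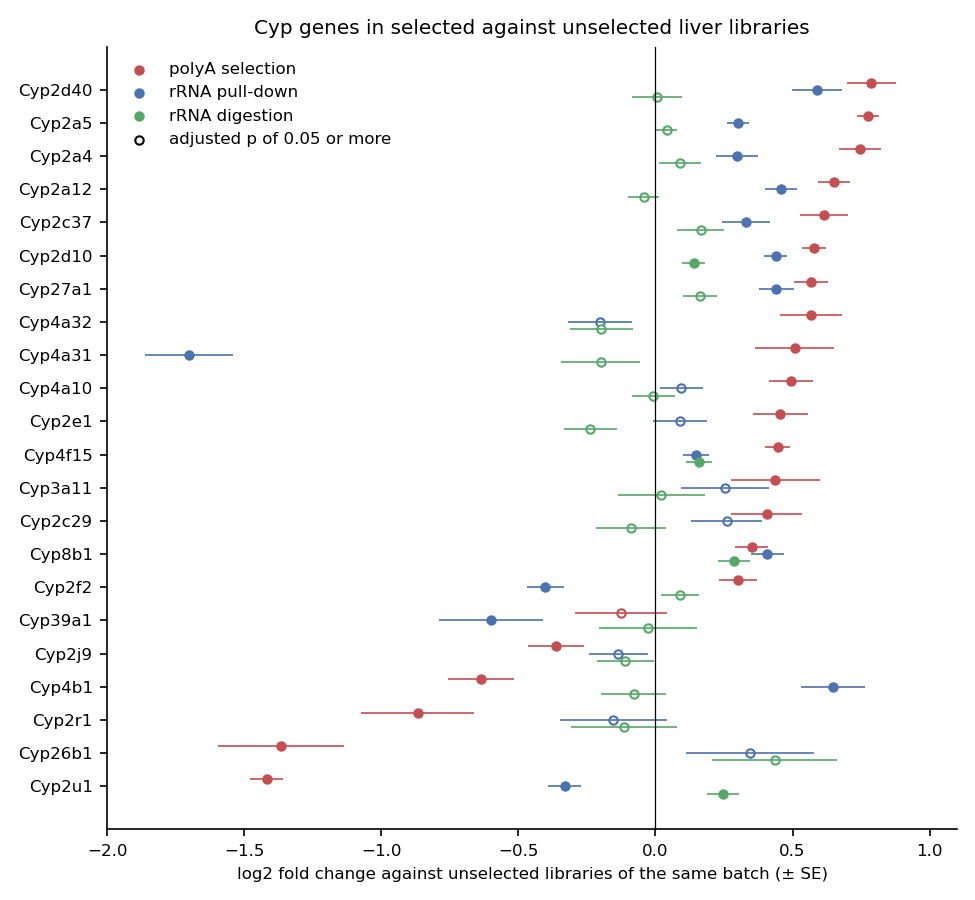
Log2 fold changes of P450 genes against the unselected liver libraries of the same batch, under TMM scaling, with approximate standard errors, for polyA selection, pull-down and digestion. Filled points have an adjusted p under 0.05. Cyp2u1 at -1.42 with polyA selection and Cyp4a31 at -1.70 with pull-down lie farthest to the left. Under library totals nearly all genes shift to the right, and these 2 are at 1.23 and 0.56, beside medians of all genes of 2.67 and 2.31.

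Other genes of the pathway and markers of cell types were measured beside these results. Of 9 genes for redox partners and haem (Por, Cyb5a, Cyb5b, Cyb5r3, Fdx1, Fdxr, Pgrmc1, Alas1 and Hmox1), 7 rose with polyA selection, 4 with pull-down and 3 with digestion, and none fell under TMM scaling, beside 25.6%, 17.5% and 7.08% of all genes higher. Of 10 regulators of P450 genes, such as Nr1i2, Nr1i3, Ahr and Hnf4a, 4 rose and 3 fell with polyA selection on the same scale, beside 25.6% and 24.8% of all genes. The summed level of the 5 hepatocyte markers was 47725 to 48342 normalised CPM in unselected batch 1, 63499 to 69804 with polyA selection, 49099 to 63899 with pull-down and 40410 to 43558 with digestion. The 5 markers of sinusoidal endothelium summed to 163 to 183 in unselected batch 1, 73.2 to 75.9, 211 to 260 and 139 to 147 in the same order, and the 5 of Kupffer cells to 101 to 107, 74.2 to 81.7, 152 to 216 and 72.6 to 82.2. Stellate cell markers summed to 151 to 153, 67.1 to 80.8, 175 to 237 and 138 to 146, and cholangiocyte markers to 18.5 to 21.2, 23.2 to 29.2, 8.99 to 23.2 and 19.1 to 24.1. Unselected batch 2, the batch of pull-down and digestion, had 47076 to 47696 for hepatocytes and 162 to 176 for endothelium. It had 101 to 108 for Kupffer cells, 153 to 164 for stellate cells and 17.9 to 21.5 for cholangiocytes. The pull-down ranges include the low-count library. The widest shift was in the 4 erythroid markers, at 247 to 259 in unselected batch 1, 216 to 231 in batch 2, 303 to 418 with polyA selection, 304 to 444 with pull-down and 2.75 to 4.55 with digestion. All libraries came from the same liver RNA. The part of these shifts in the P450 results was not tested.

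The selection methods were also set directly against each other, where most genes of any kind were called. Of 67 members, 45 differed between polyA selection and pull-down, 36 higher with polyA and 9 lower, where 72.6% of all genes were called (36.4% and 36.2%). Without the low-count library 48 differed, 36 higher and 12 lower, beside 74.1% (37.1% and 37%). Between polyA selection and digestion 56 differed, 48 higher and 8 lower, beside 80.6% of all genes (38.4% and 42.2%), and 57 without the low-count library, 48 higher and 9 lower, beside 81.6% (39% and 42.6%). Between digestion and pull-down 44 differed, 12 higher and 32 lower, beside 70.7% (34.7% and 36%). Without the low-count library 48 did, 13 higher and 35 lower, beside 71.8% (35.1% and 36.7%). Under library totals the splits with all libraries became 52 higher and 6 lower, beside 58.6% and 21.6% of all genes, 31 and 12, beside 25.4% and 55.3%, and 51 and 1, beside 73.9% and 7.96%, with medians of all genes of 0.32, -0.28 and 0.55. With that shift of all genes the sign turned for 1 of the 45, 3 of the 56 and 29 of the 44 members called, and none of the called members crossed the median of all genes. Among called members with at least 10 normalised CPM, the largest change was that of Cyp4a31, 4.22-fold higher with polyA selection than with pull-down (log2 fold change 2.08, SE 0.0706, adjusted p = 1.27e-21). Cyp4a32 was higher by 0.75 (SE 0.0542) and Cyp2f2 by 0.79 (SE 0.0417), with 683, 853 and 924 as the lowest, median and highest with polyA selection against 402, 478 and 537. Cyp2c23, an arachidonic acid epoxygenase, was higher by 0.67 (SE 0.0356), and its groups did not overlap. Cyp4b1 and Cyp2u1 were lower by 1.20 and 1.17 on the log2 scale, without overlap of libraries.

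Against digestion, polyA selection gave 0.76 for Cyp2a5, 0.74 for Cyp4a32, 0.72 for Cyp2d40, 0.71 for Cyp2c40 and 0.71 for Cyp2a4, and in none of the 5 did a digestion library reach a polyA library. Cyp2u1 was -1.75 (SE 0.0339), Cyp4b1 -0.47 and Cyp7b1, an oxysterol hydroxylase, -0.17, the last with overlapping libraries. Below 10 normalised CPM, a wider difference was that of Cyp26c1, at -3.05 without the low-count library (edgeR, adjusted p = 3.04e-06). Its means were 0.0172 with polyA selection and 0.166 with digestion. Across the 45 members with at least 10 normalised CPM, the log2 fold change of polyA selection against digestion had r = -0.59 and rho = -0.64 with log2 transcript length, a description over genes that share the same libraries. Digestion against pull-down gave 0.58 for Cyp2u1 (SE 0.0336), 0.49 for Cyp2f2 (SE 0.0415) and 1.5 for Cyp4a31 (SE 0.0721), each without overlap. On the other side were Cyp4b1 (-0.73), Cyp2d40 (-0.58), Cyp2j5 (-0.56), Cyp2c40 (-0.53) and Cyp2a12 (-0.50) under TMM scaling. Of these, Cyp2a12, Cyp2c40 and Cyp2j5 were at 0.00315 to 0.06 under library totals, beside a median of all genes of 0.55.

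Long and short fragments were compared over all methods. Over the 27 selected libraries, 29 of 64 members tested differed between long and short fragments, 10 higher with long fragments and 19 lower under TMM scaling, where 44.7% of all genes were called (24.8% higher and 19.9% lower), a share close to that of the members. Under library totals, which moved the median of all genes from 0.02 to -0.06, 3 members were called higher and 25 lower, beside 14.7% and 29.7% of all genes, and no called member changed sign. When the low-count library was left out, 38 of the members tested differed, 16 higher and 22 lower, beside 49.7% (25.6% and 24.2%). Among called members with at least 10 normalised CPM, the highest with long fragments were Cyp7a1 (log2 fold change 0.27, SE 0.0803), Cyp3a25 (0.27, SE 0.109, adjusted p = 0.0497), Cyp2c40 (0.26), Cyp3a59 (0.23) and Cyp3a13 (0.21). These were 0.29, 0.36, 0.25, 0.25 and 0.25 without the low-count library. Lowest were Cyp2a5 (-0.22, SE 0.0267), Cyp2d10 (-0.22), Cyp2f2 (-0.21), Cyp2a4 (-0.21) and Cyp27a1 (-0.20), and without the low-count library -0.24, -0.23, -0.27, -0.24 and -0.23. In all of these the 9 long and 9 short libraries overlapped. Below that level, Cyp2r1 had 0.49 (SE 0.0911, adjusted p = 0.000193) and Cyp39a1 0.26. A larger value, -1.78 (SE 0.195, adjusted p = 3.24e-07), belonged to Cyp3a44, which was named after its values were seen. It had 0 to 16 counts in a long-fragment library and 15 to 54 in a short-fragment one, and 48.4% of the 31-base words of its transcripts also occur in other genes.

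Within methods, the number of members called was highest in polyA libraries. There 46 of 67 members differed, 26 higher with long fragments and 20 lower, where 55.2% of all genes were called (27.4% and 27.7%), and under library totals 25 were higher and 22 lower, beside 23.6% and 32.5%. In digestion libraries 24 of 67 differed, 2 higher and 22 lower, beside 17.9% of all genes (8.8% and 9.15%). In pull-down libraries 2 of 63 differed, 1 higher and 1 lower, beside 6.08% (4.42% and 1.66%), and under library totals 1 was higher and 14 lower, beside 3.12% and 14.2%. Without the low-count library, pull-down gave 32 of 64, 13 higher and 19 lower, beside 37.4% (19.2% and 18.2%). Cyp7a1 had 72.4, 68.1 and 75.7 normalised CPM in the long polyA libraries and 47.6, 43.6 and 46.6 in the short ones, in the order slow, medium and fast ramp. The groups did not overlap (log2 fold change 0.64, SE 0.0367, adjusted p = 2.52e-07). In digestion libraries it had 60.4, 59.6 and 61.3 against 60.5, 61.4 and 60.4 (-0.00897, SE 0.0260). Cyp3a11 had 6306, 5832 and 6311 against 4657, 4166 and 4148 in polyA libraries (0.50, SE 0.0270), while in digestion libraries it was lower with long fragments by 0.09 on the log2 scale (SE 0.0111, adjusted p = 3.79e-05). Neither pair of groups overlapped. Cyp3a25 was higher with long fragments by 0.61 (SE 0.0380) with polyA selection and by 0.14 (SE 0.0182) with digestion. Cyp2r1 had 6.55, 6.56 and 6.54 against 3.85, 3.75 and 3.54 with polyA selection (0.81, SE 0.0844) and 9.10, 9.05 and 8.69 against 8.83, 8.31 and 9.20 with digestion. Going down, Cyp2f2 was -0.38 (SE 0.0215) and Cyp27a1 -0.36 (SE 0.025) with polyA selection. All 7 bile acid genes (Cyp7a1, Cyp7b1, Cyp8b1, Cyp27a1, Cyp39a1, Cyp46a1 and Cyp2c70) changed in polyA libraries, 4 higher and 3 lower, and none passed the test in digestion libraries. The difference between the 3 methods, tested by an interaction term (edgeR), passed for 3 of the 7, Cyp7a1, Cyp27a1 and Cyp8b1, where 31% of all genes passed. It did not pass for Cyp39a1 (adjusted p = 0.0732), Cyp46a1 (0.205), Cyp7b1 (0.268) and Cyp2c70 (0.602). Without the low-count library, the interaction passed for those 3 and also for Cyp39a1 (adjusted p = 0.0368) and Cyp7b1 (0.0109), beside 39.4% of all genes. It still did not pass for Cyp46a1 (0.166) and Cyp2c70 (0.116).

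**Figure D4:**
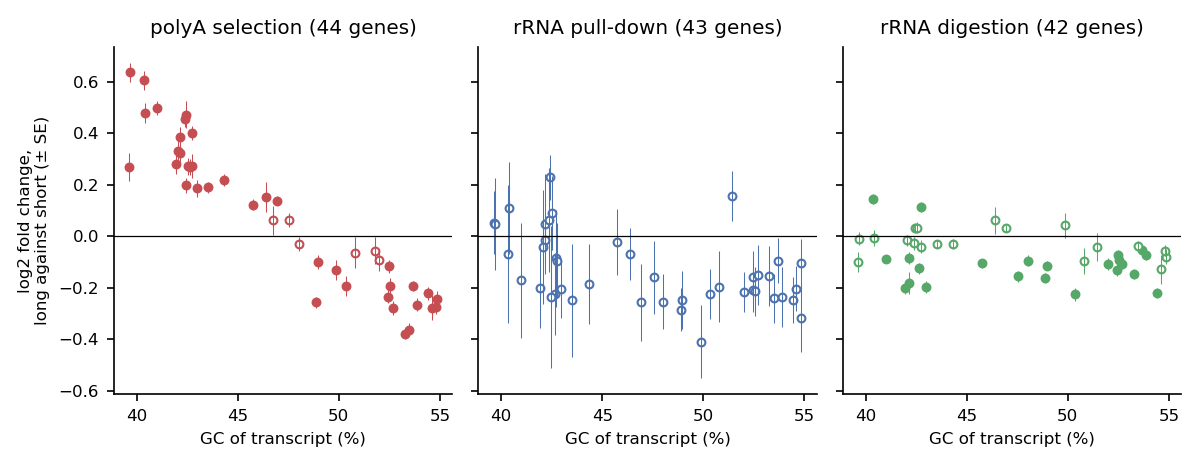
Log2 fold change of long against short fragments for each P450 gene with at least 10 normalised CPM, plotted against the GC content of its transcript in percent, with 1 panel per method and all 9 libraries of a method used. Bars are standard errors and filled points have an adjusted p under 0.05. The points fall steeply in polyA libraries (r = -0.94 over 44 genes) and little in digestion libraries (r = -0.31 over 42).

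The genes that rose and those that fell with long polyA fragments differed in base composition. The 26 higher had a median GC content of 42.5%, with a range of 39.6% to 46.9%, and the 20 lower a median of 53.4%. Cyp3a44, at 41.8%, was the one with the lowest GC content among the 20. Cyp7a1 has 39.7% GC, Cyp3a25 40.4% and Cyp3a11 41%. Across members with at least 10 normalised CPM, GC content and the length effect had r = -0.94 and rho = -0.94 in polyA libraries (n = 44), r = -0.48 in pull-down libraries (n = 43; -0.84 without the low-count library) and r = -0.31 in digestion libraries (n = 42). The same measure over all protein-coding genes at that level, on the longest transcript of each, gave rho = -0.86 (6447 genes), -0.63 (6379) and -0.27 (6351), beside -0.90, -0.41 and -0.27 for the members. These are descriptions over genes that share their libraries, and no test was made. The difference of the length effect between methods was tested by an interaction term: 16 of 67 members passed, where 31% of all genes did, and 38 of 69 without the low-count library, where 39.4% did.

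No member passed the test between ramp rates or between batches. Fast against slow ramp gave 0 of 64 members with edgeR (4 at an unadjusted p under 0.05) and 0 with DESeq2, where 0.0328% of all genes were called (0.00657% higher and 0.0263% lower). It also gave 0 without the low-count library, beside 0.0328% (0.00656% and 0.0262%). Unselected batch 2 against batch 1 gave 0 of 67 with edgeR (2 at an unadjusted p under 0.05) and 0 with DESeq2, where 0% of all genes were called by edgeR, with or without the low-count library. The median log2 fold change of the members was 0.01 in both comparisons. Across 43 members with at least 10 normalised CPM, the difference between batches had r = -0.73 and rho = -0.74 with GC content, over the same 6 libraries.

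The unselected heart library was set beside the 3 unselected liver libraries of its batch. It is a single library, so there is no replicate check and no test, and its values are on a TMM scale over these 4 libraries that differs from the one above. In heart, 47 of the 94 members had 0 counts, 10 had 1 to 3 and 37 had more, and the 94 together had 974 counts of 22.3 M, against a mean of 69955 in the liver libraries. Of 55 members that passed a filter on low counts in these 4 libraries, with levels under the floor of 3 counts set to it, 48 were at least 4-fold lower in heart and 0 at least 4-fold higher, where 13.6% of all genes were lower and 13.5% higher by that rule. The median log2 ratio of heart to liver was -6.90 for the members and 0.02 for all genes. Of the 55, 20 were at or under the floor in heart. The median of the members fell among these 20, so it is set by the floor and is not a measured ratio. In bulk tissue, fewer cells of a type and less RNA per cell cannot be told apart.

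The 4 most abundant liver P450s per kilobase were found in heart at less than 1% of their liver level. Cyp3a11 had 93 counts in heart and 17445, 16527 and 17939 in liver, 0.351% of the liver level (95% counting interval 0.283% to 0.430%). Cyp2e1 had 78 counts against 13870, 12988 and 13841, or 0.375% (0.297% to 0.468%), and Cyp2c29 19 counts, or 0.254%. The 5 hepatocyte markers stood at 0.329% to 0.420% of their liver levels in the same library, with a median of 0.352%. Of the 35 compared members with more than 3 heart counts, 20 had intervals that reach into that range, all of them under 1% of liver, and 15 had intervals above it. The other 20 compared members had at most 3 heart counts. Intervals are exact Poisson intervals of the heart count and cover counting error only. The part of hepatocyte RNA in these values was not tested.

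The 15 members above that range reached from 1.33% of the liver level, for Cyp4v3, to above it. Cyp27a1 stood at 4.51% (74 counts), Cyp2d22 at 7.23%, Cyp2j6, an epoxygenase, at 9.72%, Cyp4f13 at 12.4%, Cyp2u1 at 23.0% (112 counts) and Cyp39a1 at 41.9%. Cyp4b1 had 83 counts in heart against 68, 44 and 48 in liver, 102% of the liver level (81.2% to 126%). Cyp26b1, which breaks down retinoic acid, had 52 counts against 17, 13 and 17, or 217% (162% to 285%). Cyp1a1 and Cyp1b1, enzymes induced by aromatic hydrocarbons, had 12 and 17 heart counts. Liver had 4, 2 and 5 counts of Cyp1a1, and 3, 3 and 2 of Cyp1b1, at or under the floor of 3 counts in each library. From the counts, heart to liver ratios were 2.14 for Cyp1a1 (95% interval 0.863 to 5.34) and 4.16 for Cyp1b1 (1.70 to 11.1), with exact conditional intervals of both tissues' counts. Against liver set to the floor, Cyp1b1 did not reach 4-fold. Per kilobase, the 5 highest members in heart were Cyp4b1 (1.5 normalised CPM per kilobase), Cyp2e1 (1.45), Cyp3a11 (1.36), Cyp27a1 (1.34) and Cyp2u1 (0.874). Of those 5, Cyp2e1 and Cyp3a11 are among the 20 members whose intervals reach into the marker range.

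**Figure D5:**
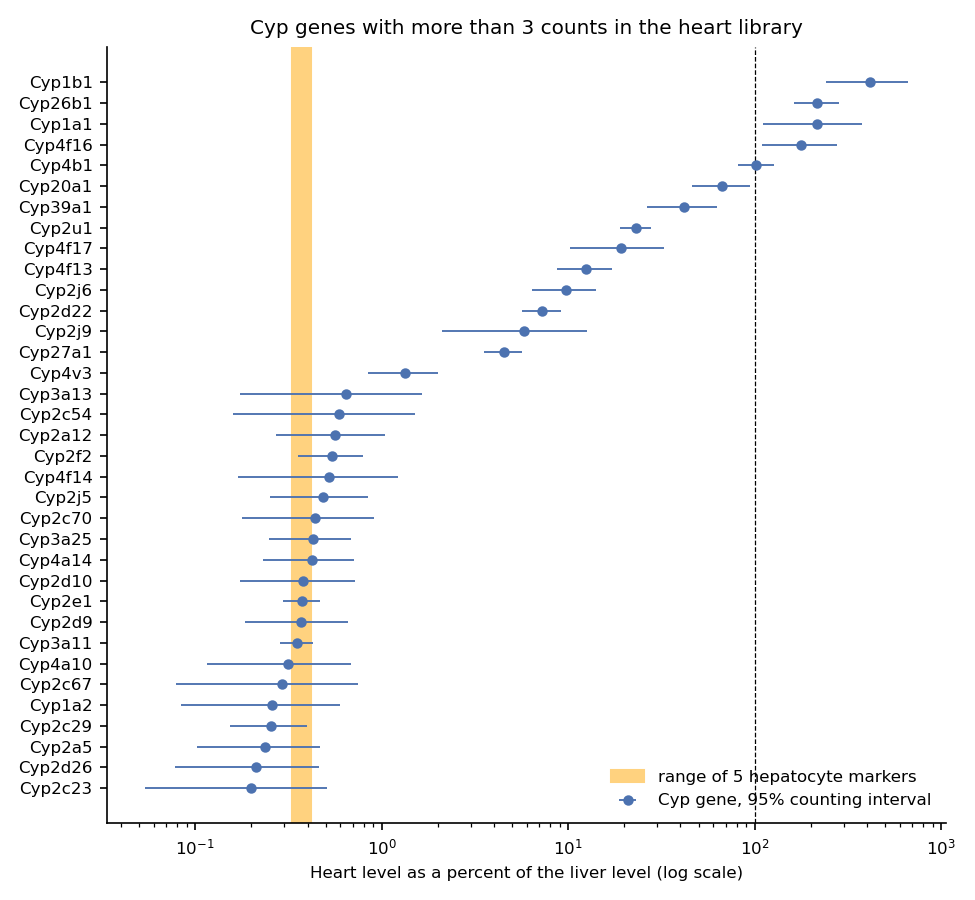
Level of each compared P450 gene with more than 3 counts in the unselected heart library, as a percent of its mean in 3 unselected liver libraries, on a log axis, with exact 95% Poisson intervals of the heart count. The band marks the 5 hepatocyte markers at 0.329% to 0.420%, and 15 genes from Cyp4v3 to Cyp1b1 lie above it.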

How the data were processed

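The authors deposited expected counts (estimated counts of each gene, not whole numbers), obtained with Salmon 1.9.0 and UMI-tools 1.1.1, with R 4.4.0 and the build GRCm38, per the submitters' processing notes. The transcript set and the treatment of molecular identifiers are not given in the sources used here. Salmon assigns shared reads by a likelihood model, which can move counts from a P450 gene to its close copy. Counts were rounded for the tests.

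Symbols, gene types, transcript lengths and GC content came from GENCODE M21 (GRCm38), which matched 50896 identifiers. Tests used edgeR 4.0.16 (R 4.3.3), quasi-likelihood with TMM, filterByExpr and Benjamini-Hochberg adjustment over all genes tested. Method and batch comparisons used 33 liver libraries with ramp and length as covariates, length and ramp comparisons the 27 selected libraries, and comparisons within a method its 9. Standard errors were approximated from the F statistic. Pair shares were compared by exact sign-flip tests over 9 matched pairs, adjusted over 16 pairs for length and 48 tests for method. Pair identity came from translated GENCODE coding sequences instead of the RefSeq proteins first intended. Heart used a 4-fold rule with a floor of 3 counts. Alternatives were RLE factors, library totals, no filter, DESeq2 1.42.0, fits on fewer groups, and leaving out libraries. The scripts were tested on simulated data.

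The members and gene lists were chosen with earlier results of these data known. Named genes were the 10 highest in unselected liver, up to 5 rising and 5 falling per method or length comparison among called genes with at least 10 normalised CPM, close pairs, the 5 highest in heart, and all genes of the short lists.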

Additional observations from a re-analysis of the deposited data

Results flagged for a closer look

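In sets of 9 libraries of 1 method, the highest or lowest library was checked for standing apart, by its gap to the nearest library divided by the range of the set (Dixon's 95% critical value, which chance passes in about 1 in 20 sets of alike libraries). Each set here mixes 3 fragment lengths and 3 ramp rates, and the sets share libraries and members, so that rate need not hold. Of 147 sets of members and pair shares, 30 passed, and in 24 of them the library was the low-count pull-down library. As the lowest pull-down library it gave gap ratios of 0.821 for Cyp2c29, 0.557 for Cyp2c37, 0.623 for Cyp2c38, 0.698 for Cyp2e1, 0.676 for Cyp2j5, 0.729 for Cyp3a11, 0.584 for Cyp3a13 and for Cyp3a59, 0.629 for Cyp3a25, 0.627 for Cyp4a14, 0.585 for Cyp4a32, 0.604 for Cyp7a1 and 0.77 for the sum of all members. Among pair shares in pull-down libraries, the ratio was 0.77 for Cyp2a22 with Cyp2a12, 0.645 for Cyp2a4 with Cyp2a5, 0.557 for Cyp2c37 with Cyp2c50, 0.631 for Cyp2c39 with Cyp2c38, 0.756 for Cyp2c40 with Cyp2c67 and 0.874 for Cyp2c40 with Cyp2c68. It was 0.646 for Cyp2c54 with Cyp2c37, 0.69 for Cyp2c68 with Cyp2c67, 0.515 for Cyp2d11 with Cyp2d10, 0.745 for Cyp3a59 with Cyp3a25 and 0.565 for Cyp4a32 with Cyp4a10. All of these pull-down ratios were of the low-count library. A ratio of 0.507 for Cyp4a31 with Cyp4a10 belonged to the pull-down library of slow ramp and short fragments, the highest at 1.40%. In polyA libraries the ratio was 0.646 for Cyp2a4 with Cyp2a5, 0.503 for Cyp2c39 with Cyp2c38 and 0.541 for Cyp2c40 with Cyp2c68. In digestion libraries it was 0.619 for Cyp2d11 with Cyp2d10 and 0.515 for Cyp4a31 with Cyp4a32.

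The effect of long against short fragments differed between the methods for 16 members, by the interaction test of edgeR over the 27 selected libraries. Among bile acid and vitamin D genes, Cyp7a1 had log2 fold changes of 0.64 with polyA selection, 0.05 with pull-down and -0.00897 with digestion (adjusted p = 0.000305), Cyp27a1 -0.36, -0.24 and -0.04 (adjusted p = 0.00109), Cyp8b1 -0.27, -0.11 and -0.06 (adjusted p = 0.00834), and Cyp2r1 0.81, 0.68 and 0.03 (adjusted p = 0.000243). Among Cyp2c genes, Cyp2c37 had 0.19, -0.20 and -0.20 in the same order (adjusted p = 0.00122), Cyp2c54 0.28, -0.20 and -0.20 (adjusted p = 0.00415), Cyp2c50 0.27, -0.22 and -0.12 (adjusted p = 0.0285) and Cyp2c55 0.32, -0.01 and -0.18 (adjusted p = 0.000899). Cyp2c40 had 0.47, 0.23 and 0.000244 (adjusted p = 0.00373), Cyp2c38 0.27, 0.05 and -0.10 (adjusted p = 0.0269) and Cyp2c69 0.53, -0.03 and -0.04 (adjusted p = 0.0223). Cyp3a59 had 0.48, 0.11 and -0.00687 (adjusted p = 0.00789) and Cyp3a13 0.45, 0.06 and -0.03 (adjusted p = 0.023). In the Cyp4 family, Cyp4a32 had -0.13, -0.41 and 0.04 (adjusted p = 0.0109), Cyp4f13 -0.25, -0.32 and -0.08 (adjusted p = 0.0214) and Cyp4b1 -0.08, 0.16 and -0.04 (adjusted p = 0.0419). These pull-down values include the low-count library as 1 of 3 long-fragment libraries. Without it, pull-down had 0.24 for Cyp7a1, 0.31 for Cyp3a13, 0.29 for Cyp3a59, -0.33 for Cyp4a32, -0.44 for Cyp4f13, -0.09 for Cyp2c37, -0.01 for Cyp2c54 and for Cyp2c50, and 0.04 for Cyp2c55. The interaction passed for all 16 without it (edgeR, adjusted p from 1.84e-07 to 0.0283).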

How the results depend on the processing

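Alternatives were DESeq2 size factors (RLE), library totals, no filter on low counts, DESeq2, a fit on only the groups compared, and leaving out libraries or a ramp. Leaving out the low-count pull-down library in comparisons without pull-down was chosen after seeing the data. Of the alternative values for counts of members called, 88 were within 1.5 times the value reported and 19 were not. The values below are members called, with the share of all genes called in brackets, and where no construction is named the cause was not tested. The interaction of length and method gave 29 with DESeq2 (32.4%), 36 with library totals (44%) and 38 without the low-count library (39.4%), in place of 16 (31%). Long against short fragments within pull-down libraries, with 2 (6.08%), gave 8 (9.49%), 15 (17.3%) and 32 (37.4%) in the same order, and 0 to 26 (0.184% to 32.1%) when 1 ramp was left out (26 without the slow ramp, to which the low-count library belongs). PolyA selection against unselected libraries gave 65 with library totals (94.8%), in place of 42 (50.4%). Digestion against unselected libraries, with 4 (14.7%), gave 17 in a fit on only the groups compared (21.8%), 66 with library totals (98.2%), 10 without the low-count library (17.7%), and 1 to 4 (8.29% to 10.4%) when 1 unselected replicate was left out (1 without replicate 2 and 2 without replicate 3). Without replicate 2, Cyp2u1 lost its call (adjusted p = 0.0980). Pull-down against unselected libraries, with 21 (32.8%), gave 13 on only the groups compared (19.6%), 66 with library totals (95.2%) and 33 without the low-count library (35%). Pairs at 95% protein identity passed in 8 of 15 tests by method, in place of 24 of 48. All 5 members called lower with polyA selection and all 5 with pull-down against unselected libraries turned sign with library totals, as did 29 of 44 called between digestion and pull-down. That scale moves all genes together, and none of these crossed the median of all genes. Among named genes the values then were 0.10 for Cyp7a1 (polyA against pull-down), 2.29, 1.23 and 2.01 for Cyp2j9, Cyp2u1 and Cyp4b1 (polyA against unselected), 0.0584, 0.0283 and 0.00315 for Cyp2a12, Cyp2c40 and Cyp2j5 (digestion against pull-down), and 1.86, 1.93 and 0.56 for Cyp2f2, Cyp2u1 and Cyp4a31 (pull-down against unselected). Between long and short fragments, library totals left Cyp3a13, Cyp3a25, Cyp3a59 and Cyp7a1 above the threshold (adjusted p = 0.210, 0.198, 0.0986 and 0.0756), as did no filter for Cyp3a25 (0.0514). Cyp2d10 and Cyp4f15 lost their digestion call with RLE too, and without unselected batch 2 replicate 2 or 3. In heart, library totals gave 45 members at least 4-fold lower (10.8%) and 1 higher (19.7%), and a 2-fold rule 3 higher (26.4%). Unselected batch 2 against batch 1 with the replicate number as a block gave 0 members, as without it. Same-numbered libraries of the 2 batches had correlations of -0.0179, -0.0336 and -0.0415, so the numbers do not pair them. Depth limits low members most: the P450 genes were 0.335% to 0.357% of the counts in unselected libraries, and heart had 1 library.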
